A study of Rattus norvegicus with 4 samples.

Results

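The colony-stimulating factors and lymphoid growth cytokines followed here are 7 genes: Csf2 (GM-CSF), Csf3 (G-CSF), Csf1 (M-CSF), Kitlg (stem cell factor), Il7, Il15 and Ebi3. They were chosen by name, as array probe sets annotated with exactly 1 symbol from this list, which gave 15 probe sets for 7 of the 14217 genes on the array. The cells were smooth muscle cells from the aorta of Sprague-Dawley rats, grown for 5 days with 10% serum and then held for 3 days in serum-free medium. Of 4 samples, 2 then received IL-1b at 2.5 ng/mL and 2 received vehicle, 0.1% BSA, in both cases for 24 hours before total RNA was taken. No genetic change was made in either group. The labels do not say whether samples with different replicate numbers were separate cultures, so every p value reflects the spread among these 4 samples alone, and that spread may be technical.

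Colony-stimulating factors are secreted proteins that drive the production and survival of myeloid cells. Csf2 acts on granulocytes and macrophages, Csf3 on neutrophils and their precursors, and Csf1 on macrophages. Kitlg, the ligand of the receptor Kit, supports stem cells, mast cells and melanocytes, while Il7 and Il15 support lymphocytes and natural killer cells. Ebi3 is a secreted, receptor-like chain that pairs with Il27 to make interleukin-27 and with Il12a to make interleukin-35. In the vessel wall, smooth muscle cells exposed to inflammatory cytokines are a known local source of several of these factors.

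Each sample had its own array. Values are MAS5 intensities, the authors' brightness of a probe set on a linear scale, and the trimmed mean of each array was 250.1. IL-1b replicate 1 stood apart: bacterial hybridisation controls added in fixed amount read 3.50 times their vehicle mean there, against 0.954 times on IL-1b replicate 2. Its background was 76.7, the 95th percentile over 27 bacterial control probe sets with little signal on any array, against 18.8 on IL-1b replicate 2 and 29.4 and 26.9 on vehicle replicates 1 and 2. For the smooth muscle label, the markers Acta2, Tagln, Cnn1, Myh11, Smtn, Lmod1 and Des (7 of 7) were above background on the 4 arrays. Their summed intensity was 11660 and 8692 on the IL-1b arrays, against 30735 and 31511 on the vehicle arrays. Of the 7, 6 passed as lower with IL-1b, beside 8.13% called lower of all genes tested. In RNA from whole cultures, fewer cells of a type and less RNA per cell cannot be told apart.

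With IL-1b, transcripts of Csf2, Csf3, Csf1 and Ebi3 rose and that of Il15 fell, while Kitlg did not pass the test and Il7 was too dim to be tested. Counted at each gene's brightest probe set, 4 of the 7 genes were higher, 1 was lower, 1 did not pass and 1 was not tested, with an adjusted p of 0.05 in limma as the threshold. Across 10000 genes tested, 7.19% were called higher, 8.13% lower and 15.3% in either direction. By probe set, 12 of the 15 were bright enough to be tested, 6 were called higher and 1 lower, against 6.32% higher, 7.11% lower and 13.4% in either direction of 18625 tested. The filter was on the mean over the 4 arrays, so a gene dark in 1 group could enter the test through the other. Csf2, Csf3 and Ebi3 entered through their IL-1b values and Il15 through its vehicle values. Genes named below, such as Lyz2, Il11 and Socs3, entered through their IL-1b values too. With no filter the limma adjusted p was 1.8e-07 for Csf2, 6.5e-06 for Csf3, 0.016 for Ebi3 and 0.019 for Il15. Without that filter the median log2 difference, IL-1b minus vehicle, was 2.61 over the 7 genes and 0.06 over all 14217 genes. Without IL-1b replicate 1 the log2 difference of Kitlg at its brightest probe set was -0.73, against -0.75 with all 4 arrays.

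**Figure D1:**
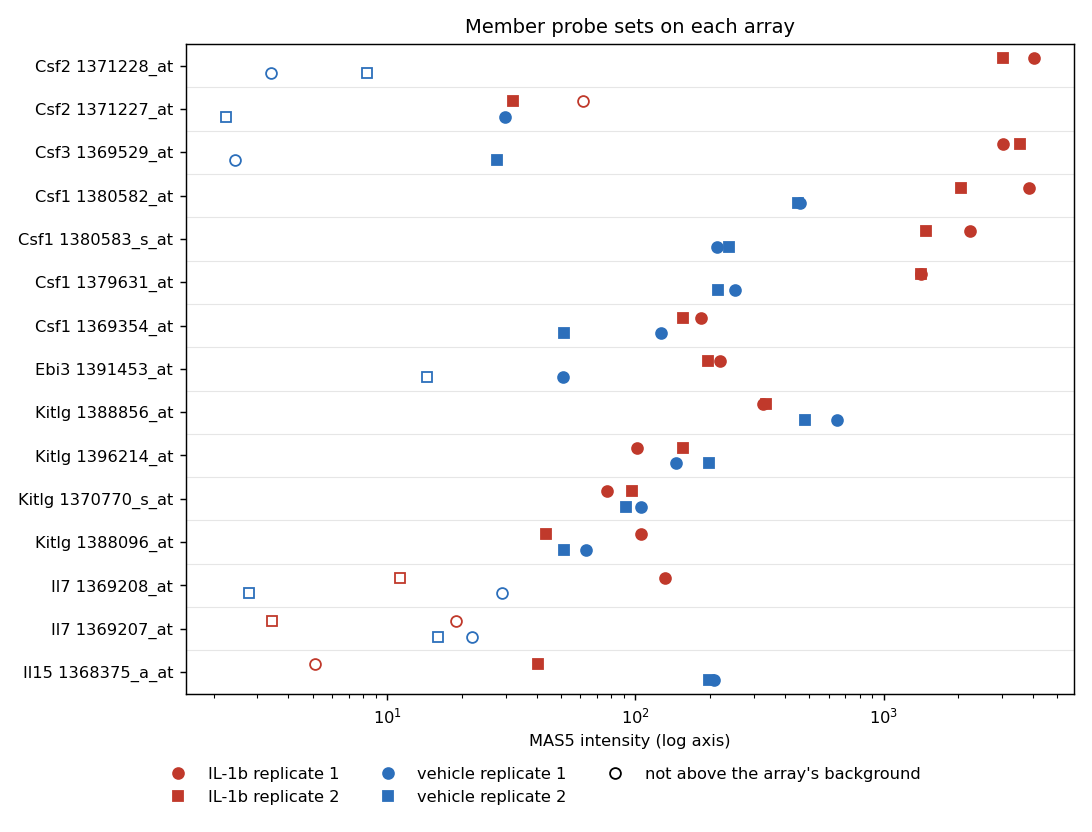
MAS5 intensity (log axis) of the 15 probe sets of the 7 genes on each array, with IL-1b arrays in red above vehicle arrays in blue; open symbols are not above that array's background. Csf2 (1371228_at) and Csf3 read 3021 or more on both IL-1b arrays and 27.7 or less on both vehicle arrays, while the IL-1b and vehicle symbols of 3 of the 4 Kitlg probe sets intermingle.

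Of these genes, 3 had a promoter window in the RefSeq tables for GRCr8, namely Csf2, Il15 and Kitlg. All members with a window are shown. They are a gene that rose, a gene that fell and a gene that did not pass. Each stretch is 150 bases long, 5′ to 3′ on the gene's strand, and ends 40 bases before the annotated start. Capitals mark matches to the motifs searched.
Csf2, chr10:38889714-38889863, minus strand: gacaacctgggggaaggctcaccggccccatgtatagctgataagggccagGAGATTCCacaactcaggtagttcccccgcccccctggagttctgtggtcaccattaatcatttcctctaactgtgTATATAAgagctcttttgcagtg
Il15, chr19:42544516-42544665, plus strand: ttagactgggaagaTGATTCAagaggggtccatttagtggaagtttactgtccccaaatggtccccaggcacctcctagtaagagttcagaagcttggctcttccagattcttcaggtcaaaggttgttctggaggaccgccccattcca
Kitlg, chr7:36782470-36782619, plus strand: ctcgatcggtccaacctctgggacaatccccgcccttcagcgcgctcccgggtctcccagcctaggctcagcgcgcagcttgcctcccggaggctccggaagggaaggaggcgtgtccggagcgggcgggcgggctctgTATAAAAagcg

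The whole windows, 250 bases before to 50 after the start, were searched for 5 motifs that were chosen with the sequences in view. A TATA box (TATANAA, gene strand) was present in Csf2, beginning 63 bases before the annotated start, and in Kitlg, beginning 51 bases before it, and in 8.13% of 33469 rat promoter windows. Csf2 also held GAGATTCC, the core of the CK-1 element known from human and mouse cytokine promoters, 139 bases before the start, which 0.860% of windows hold on either strand. Il15 held TGATTCA at 176 bases, a match to a loose AP-1 pattern (TGANTCA, either strand) that 7.33% of windows hold. Its centre base T fits only because the pattern allows any base there. The 3 windows had no match, on either strand, to the C/EBP site TTGCNNAA (10.6% of windows) or to the kB decamer pattern GGGRNWYYCC (4.18%). Only full matches to these patterns were counted, so a site with other letters would be missed, and the windows are not shown to lack such sites. The searched matches did not overlap each other. A match is a description of letters and no measurement of binding.

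The brighter Csf2 probe set, 1371228_at, read 4034 and 3022 on the IL-1b arrays and 3.40 and 8.28 on the vehicle arrays. Both vehicle values were below background, and the groups were separated by more than the whole spread within either. The fold was therefore bounded at 124 or more over background. The fitted log2 difference was 8.30 ± 0.30 (SE, n = 2 each, limma adjusted p = 3.2e-05) on the log2(intensity + 5.49) scale. Its size is set by the offset, at 9.36 with none and 7.18 with a larger offset of 18.5, and it is no bound.

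A second Csf2 probe set built from the same accession, 1371227_at, was far dimmer. It read 61.7 and 32.2 with IL-1b and 29.9 and 2.24 with vehicle, above background on 1 array of each group, and was too dim to be tested. Its groups did not overlap, and with no filter the log2 difference was 1.61 (adjusted p = 0.44). Il3, a growth factor of early blood cells, is the next protein-coding gene to Csf2 in the RefSeq annotation. Its probe set read 50.3 and 20.4 with IL-1b and 53.6 and 9.32 with vehicle, overlapping and too dim to be tested.

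Csf3 read 3021 and 3539 on the IL-1b arrays, against 2.43 and 27.7 on the vehicle arrays. The IL-1b arrays lay close together and far above both vehicle arrays, of which replicate 2 was just above background and replicate 1 below it. The log2 difference was 7.66 ± 0.60 (SE, n = 2 each, adjusted p = 3.6e-04). The dim vehicle values set its size: it was 6.63 and 8.69 when vehicle replicates 1 and 2 were left out in turn, and 8.64 with no offset and 6.72 with the larger one. The 95% intervals of Csf2 (7.59 to 9.02) and Csf3 (6.25 to 9.07) overlapped, and the difference between them was not tested.

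Csf1 differed from both in being well above background in vehicle. At its brightest probe set, 1380582_at, it read 3843 and 2057 on the IL-1b arrays and 459 and 451 on the vehicle arrays, a log2 difference of 2.61 ± 0.28 (SE, n = 2 each, adjusted p = 0.0013). IL-1b replicate 1 was the higher of its pair, and the groups did not overlap. The probe set 1380583_s_at, from the same accession, read 2235 and 1478 with IL-1b and 213 and 238 with vehicle, a log2 difference of 2.98 ± 0.22 (adjusted p = 2.9e-04). Probe set 1379631_at read 1411 and 1408 with IL-1b and 252 and 214 with vehicle (2.57 ± 0.16, adjusted p = 1.6e-04). These 3 probe sets gave fitted folds of 6.12, 7.90 and 5.95.

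The remaining Csf1 probe set, 1369354_at, the only Csf1 probe set here with a RefSeq transcript as its accession, read 183 and 155 with IL-1b and 127 and 51.4 with vehicle. Its groups did not overlap, but the vehicle arrays were far apart, and it did not pass (log2 difference 1.00 ± 0.44, 95% interval -0.05 to 2.06, adjusted p = 0.20). That interval ends below the lower bound of 1380583_s_at (2.46) and of 1379631_at (2.20) and reaches past that of 1380582_at (1.96). Leaving out vehicle replicate 1 gave 1.61 and leaving out replicate 2 gave 0.40. Without IL-1b replicate 2 it passed, at 1.12 (adjusted p = 0.027), with adjusted p of 0.027 to 0.86 over 13 alternatives.

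Macrophages respond to Csf1 and can also carry their own cytokine transcripts, so their markers were read beside these genes. Of 10 macrophage markers measured, only Lyz2 and Cd14 were bright enough to be tested. Lyz2, encoding lysozyme, was called higher, at 685 and 969 with IL-1b and 3.83 and 10.2 with vehicle, where it was below background. Cd14, a lipopolysaccharide co-receptor and the only macrophage marker above background on all 4 arrays, read 796 and 950.4 with IL-1b and 616 and 578 with vehicle and did not pass (adjusted p = 0.072, unadjusted p = 0.012). The summed intensity of the 10 was 1765 and 2050 on the IL-1b arrays, against 774 and 709 on the vehicle arrays. Lyz2 and Cd14 made up most of it on each array. By mean intensity Csf1r and Tyrobp were lower with IL-1b and the rest higher. Csf1r read 16.7 and 28.8 with IL-1b and 55.5 and 49.8 with vehicle, above background on both vehicle arrays. Cd68 read 40.2 and 32.5 with IL-1b and 10.8 and 5.55 with vehicle. Tyrobp, Itgam and Mrc1 were above background on 0 arrays, and Ptprc, the pan-leukocyte antigen, read 94.9 and 6.41 with IL-1b and 0.713 and 12.5 with vehicle, above background on IL-1b replicate 1 alone. Markers of T and natural killer cells (8 measured), B cells (2), mast cells (5), neutrophils (2) and endothelium (6) were dim, and none of them was above background on all 4 arrays. Cd3e and Tek were the only markers of these cells bright enough to be tested, and neither passed (adjusted p = 0.67 and 0.86). Of 5 fibroblast markers 2 were called higher, Dpt and Pdgfra (log2 differences 3.34 and 1.80), beside 7.19% called higher of all genes tested. Lum and Thy1 did not pass (0.94 and -0.15, limma adjusted p = 0.078 and 0.72), and Dcn was too dim to be tested (-0.40). The sum of the 5 was 1355 and 1913 with IL-1b, against 826 and 786 with vehicle, and Lum was its largest part on each array. The part of other cells in the changes of Csf1, Csf2 and Csf3 was not tested.

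Kitlg, unlike the colony-stimulating factors, had no probe set past the threshold among 4 tested. The brightest, 1388856_at, read 326 and 335 on the IL-1b arrays and 647 and 480.5 on the vehicle arrays. Both IL-1b arrays were below both vehicle arrays, by a log2 difference of -0.75 ± 0.20 (SE, n = 2 each), and the adjusted p of 0.0505 lay just past the threshold (unadjusted p = 0.0068). Over 13 alternatives its difference kept a negative sign, at -0.96 to -0.53. With all 4 arrays kept, it passed with the larger offset (adjusted p = 0.049), with no filter (0.041) and with a block for replicate number (0.022). It did not pass in the other alternatives that kept all 4 arrays, up to 0.18 with median centring. The groups of the other 3 probe sets overlapped.

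Those 3 Kitlg probe sets had small differences. The probe set 1396214_at read 101 and 155 with IL-1b and 146 and 198 with vehicle (log2 difference -0.43, 95% interval -1.20 to 0.34). The probe set 1370770_s_at read 77.0 and 97.2 with IL-1b and 106 and 91.3 with vehicle (-0.17, -1.02 to 0.67). The last, 1388096_at, read 106 and 43.4 with IL-1b and 63.1 and 51.5 with vehicle (0.24, -1.07 to 1.55), with adjusted p of 0.44, 0.79 and 0.82 in that order. The intervals of these 3 include a rise or fall of modest size, so the data do not show that Kitlg was unaffected. The difference of 1388096_at turned to -0.35 without IL-1b replicate 1.

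Il15 was the member that fell. Its single probe set, 1368375_a_at, read 5.12 and 40.4 on the IL-1b arrays and 208 and 198 on the vehicle arrays. The vehicle arrays were close together, whereas the IL-1b arrays differed from each other and only replicate 2 was above background. The log2 difference was -3.24 ± 0.72 (SE, n = 2 each, adjusted p = 0.028). Its size was -2.18 with IL-1b replicate 1 left out and -4.30 with replicate 2 left out, and -2.57 with the larger offset. The reading of 5.12 on IL-1b replicate 1 was below that array's background of 76.7. The sizes that use it, -3.24 and -4.30 among them, are therefore no bound on the fall. With all 4 arrays kept, the call was lost with quantile normalization (adjusted p = 0.058) and without the intensity trend (0.10). It was also lost without vehicle replicate 1 or 2, where the difference was -3.21 and -3.27.

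Il7, a survival factor of lymphocyte precursors and naive T cells, was at the limit of the arrays. Its brighter probe set, 1369208_at, read 131 and 11.2 with IL-1b and 29.0 and 2.76 with vehicle. It was above background on IL-1b replicate 1 alone, and the groups overlapped. The other, 1369207_at, read 18.9 and 3.43 with IL-1b and 21.9 and 15.9 with vehicle, above background on 0 arrays. Neither was tested, and with no filter the adjusted p was 0.56 and 0.73, so a change in Il7 was not detectable at this signal.

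Ebi3 rose. It read 218 and 196 on the IL-1b arrays and 51.2 and 14.5 on the vehicle arrays, where replicate 1 was above background and replicate 2 was not. The IL-1b arrays lay close together and above both vehicle arrays, with a log2 difference of 2.66 ± 0.56 (SE, n = 2 each, adjusted p = 0.023). Leaving out vehicle replicate 1 gave 3.41 and leaving out replicate 2 gave 1.90. The call was lost without the intensity trend (adjusted p = 0.083, in a range of 3.8e-04 to 0.083 over 12 alternatives). Of its partner chains, Il12a read 6.51 and 22.7 with IL-1b and 38.7 and 13.8 with vehicle, overlapping and too dim to be tested, and Il27 was not analysed here.

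**Figure D2:**
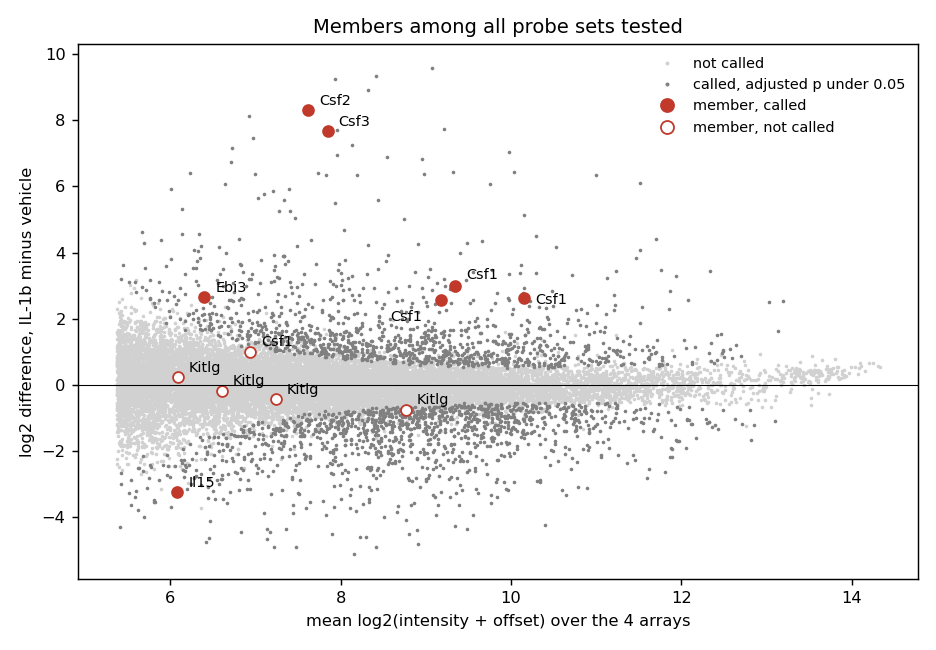
Log2 difference, IL-1b minus vehicle, against the mean log2(intensity + offset) over the 4 arrays for 18625 probe sets, with the 12 member probe sets tested as red circles, filled where called. Csf2 and Csf3 lie at 8.30 and 7.66, Csf1 and Ebi3 near 2.6 to 3.0, and Il15 at -3.24.

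Not overlapping between groups is a weak mark here, since with 2 arrays a side it held for 58.3% of the 18625 probe sets tested. It held for 9 of the 12 member probe sets tested. The calls of Csf2, Csf3 and 3 Csf1 probe sets held in each of the 13 alternative settings run, whereas those of Il15 and Ebi3 did not.

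**Figure D3:**
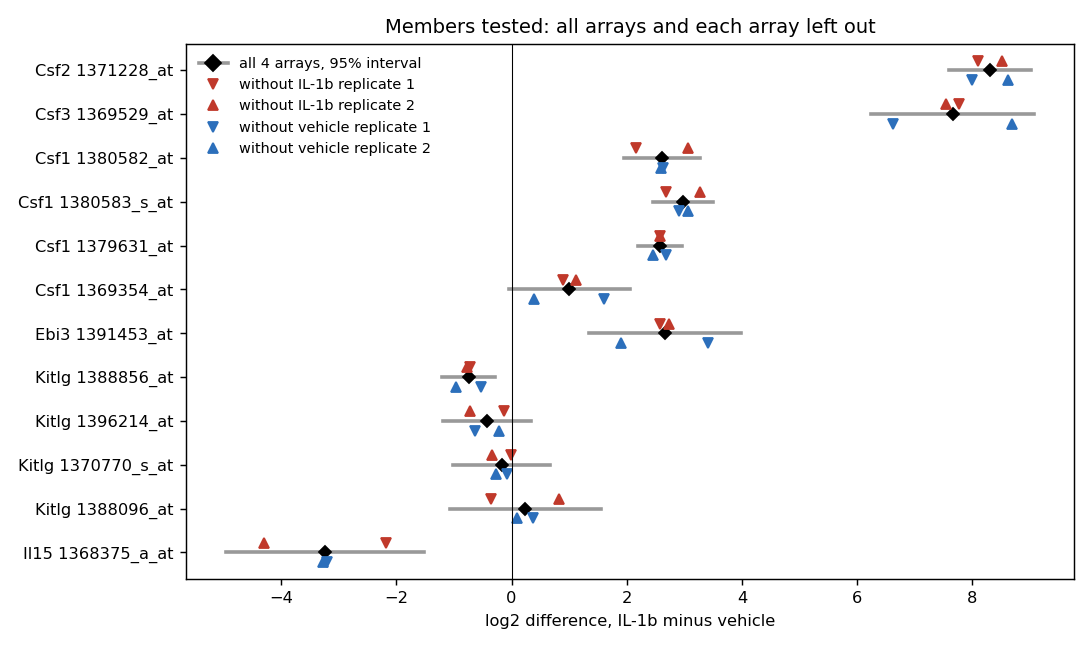
Log2 difference of the 12 member probe sets tested with all 4 arrays (diamonds, with 95% intervals from limma as grey bars) and with each array left out (triangles, red for an IL-1b array and blue for a vehicle array). Leaving out an IL-1b array moved Il15 between -2.18 and -4.30, and leaving out a vehicle array moved Csf3 between 6.63 and 8.69 and Ebi3 between 1.90 and 3.41.

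The receptors of these factors were mostly dim. Of 18 receptor genes listed, 14 were measured, 4 were tested and 1 passed, as higher, beside 7.19% called higher of all genes tested. That gene was Il6st (gp130), a signalling chain shared by receptors of the interleukin-6 family and of interleukin-27. It read 7776 and 5727 with IL-1b and 1411 and 1212 with vehicle at its brightest probe set (log2 difference 2.35 ± 0.19, SE, adjusted p = 4.2e-04), and its 4 probe sets were all called higher. The median log2 difference of the 14, with no filter, was 0.63, against 0.06 over all genes. Since 10 of the 14 receptors were too dim to be tested, the 0.63 rests largely on values near background. That background was highest on IL-1b replicate 1 (76.7), and the median does not show a general rise of the receptors.

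Among the main receptors of the 7 factors, Csf1r, the receptor of Csf1, read 16.7 and 28.8 with IL-1b and 55.5 and 49.8 with vehicle and was too dim to be tested. Csf2ra, the binding chain for Csf2, read 82.3 and 44.4 with IL-1b and 23.7 and 41.8 with vehicle, and did not pass (0.83 ± 0.64, adjusted p = 0.45). Its partner Csf2rb read 16.9 and 6.57 with IL-1b and 18.2 and 5.10 with vehicle, below background on the 4 arrays. Csf3r was also below background throughout, at 27.2 and 17.6 with IL-1b and 7.45 and 11.6 with vehicle. These values leave the cultures with no clearly detected signal for Csf2rb or Csf3r in either group. Kit read 14.0 and 56.1 with IL-1b and 11.9 and 35.2 with vehicle, above background on replicate 2 of each group, and the groups overlapped.

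The lymphoid receptors were dim as well. Il2rb, used by interleukin-15 and interleukin-2, read 75.8 and 35.8 with IL-1b and 6.55 and 24.1 with vehicle. Il2rg, the common gamma chain, read 39.1 and 3.82 with IL-1b and 3.21 and 17.0 with vehicle, below background on the 4 arrays. Il7r read 12.9 and 3.36 with IL-1b and 50.6 and 20.1 with vehicle at its brighter probe set. None of these 3 was bright enough to be tested, and Il15ra was not analysed here.

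**Figure D4:**
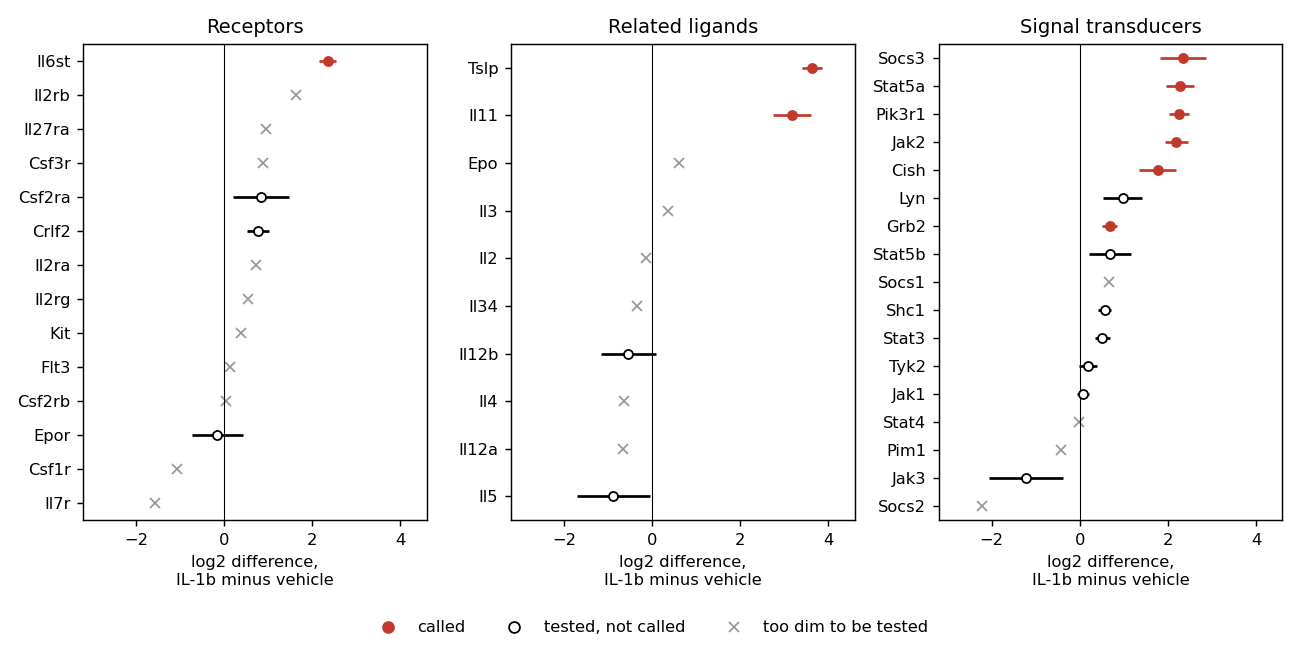
Log2 difference, IL-1b minus vehicle, of receptors, related ligands and signal transducers at each gene's brightest probe set; bars are the SE from limma, filled red circles are called, open circles are tested but not called, and crosses were too dim to be tested. In the 3 panels 1, 2 and 6 of the genes tested were called higher and none lower.

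Related growth cytokines were read in the same way. Of 15 listed, 10 were measured, 4 tested and 2 called higher, beside 7.19% called higher of all genes tested, with a median log2 difference of -0.23 with no filter. Tslp, a relative of Il7 that acts on dendritic cells and lymphocytes, read 787 and 996 with IL-1b and 60.9 and 71.5 with vehicle. Its arrays agreed closely within each group, and the log2 difference was 3.64 ± 0.22 (SE, adjusted p = 1.5e-04). Crlf2, the receptor chain that binds it, read 465 and 318 with IL-1b and 256 and 198 with vehicle and did not pass (0.76 ± 0.25, adjusted p = 0.10). Il11, a gp130 cytokine that supports megakaryocytes, read 274 and 279.7 with IL-1b and 37.7 and 17.1 with vehicle, with 1 vehicle array above background (3.18 ± 0.43, adjusted p = 0.0040). Il34, the other ligand of Csf1r, read 20.1 and 27.5 with IL-1b and 58.1 and 15.5 with vehicle, overlapping and too dim to be tested.

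Of 18 signal transducers and feedback genes listed for these receptors, 17 were measured and 13 tested. Of those 13, 6 were called higher and 0 lower in limma (0 lower also at an unadjusted p of 0.05), beside 7.19% higher and 8.13% lower of all genes tested. With no filter the median log2 difference was 0.67. Socs2, a feedback inhibitor of cytokine signalling and known target of Stat5, was too dim to be tested and is named after its values were seen. It read 6.93 and 4.25 with IL-1b, below background, and 48.7 and 43.5 with vehicle, above it, at least 1.21-fold lower with IL-1b. With no filter its log2 difference was -2.23, its unadjusted p 0.022 and its adjusted p 0.16. Stat5a, a transcription factor activated by Csf2, Il7 and Il15 receptors, read 468 and 369 with IL-1b and 61.7 and 106 with vehicle (2.28 ± 0.31, SE, adjusted p = 0.0041). Stat5b, its close relative, read 254 and 91.3 with IL-1b and 91.1 and 95.6 with vehicle, so IL-1b replicate 1 alone was high, and it did not pass (adjusted p = 0.41). Jak2, the kinase bound to the Csf2 receptor, read 517 and 419 with IL-1b and 118 and 80.9 with vehicle (2.19 ± 0.26, adjusted p = 0.0023). Pik3r1, a regulatory subunit of phosphoinositide 3-kinase, read 474 and 476 with IL-1b and 83.2 and 109 with vehicle (2.26 ± 0.23, adjusted p = 0.0011). Socs3, an inhibitor of cytokine signalling, read 139.8 and 107 with IL-1b and 17.6 and 21.9 with vehicle, below background on both vehicle arrays and so at least 4.36-fold higher. It was called (adjusted p = 0.029), a call lost without vehicle replicate 1 or 2, where the log2 difference was 2.23 and 2.47.

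The other genes called in that list, named after their values were seen, were Cish and Grb2. Cish, a feedback inhibitor and known target of Stat5, read 161 and 185 with IL-1b and 64.8 and 33.2 with vehicle (1.77 ± 0.42, adjusted p = 0.036). Its dimmer probe set read 157 and 218 with IL-1b and 18.6 and 20.7 with vehicle, below background on both vehicle arrays, and was called too, at least 6.57-fold higher (adjusted p = 0.0072). Without vehicle replicate 2 the brighter probe set gave 1.34 and missed the threshold. That probe set also missed it without the intensity trend (limma adjusted p = 0.076). Grb2, an adaptor protein, was called at its brightest probe set (0.69 ± 0.17, adjusted p = 0.041), while its other 2 probe sets did not pass, at 0.05 and -0.81. Jak1 and Tyk2 had differences of 0.08 and 0.18 and did not pass (adjusted p = 0.73 and 0.61).

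For the 6 members tested at their brightest probe set, that is without Il7, the genes with the most similar profiles over the 4 arrays were found among 9931 candidates, by the root mean square difference of centred log2 values. For Csf2 they were Ass1, an enzyme of arginine synthesis, at 0.36 and Wfdc18 at 0.61. For Csf3 they were Csf2 itself at 0.64 and Egln3, an oxygen-sensing prolyl hydroxylase, at 0.77. Egln3 read 4419 and 3736 with IL-1b and 26.0 and 31.6 with vehicle. For Csf1 they were the kinase gene Map3k6 at 0.12 and Nox1, a superoxide-producing oxidase, at 0.14. Nox1 read 549 and 359 with IL-1b and 57.6 and 62.6 with vehicle, so it too was higher on IL-1b replicate 1.

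For Il15 the closest were Klhl31 at 0.22 and the adenylyl cyclase gene Adcy5 at 0.24. Adcy5 read 9.43 and 35.3 with IL-1b and 212 and 214 with vehicle, and like Il15 it was lower on IL-1b replicate 1. For Kitlg they were Uck2, a uridine-cytidine kinase, at 0.04 and the transcription factor gene Atoh8 at 0.06. For Ebi3 they were Rnase1l2 at 0.19 and Lhfpl2 at 0.23. With 4 arrays in 2 groups, such a likeness describes the size of the difference and the spread within each group, and it was not tested.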

How the data were processed

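Total RNA of 4 samples, 2 with IL-1b and 2 with vehicle, was labelled with biotin and measured on Affymetrix arrays, per the labels. The authors deposited intensities, and the submitters' processing notes name MAS5 as the tool. The version of MAS5 is not given in the sources used here. The tool subtracts background and scales each array. The cause of the high controls and background on IL-1b replicate 1 was not tested. Detection calls were not used here.

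An offset of 5.49 (the 10th percentile of the intensities) was added and log2 taken. After 57 control probe sets were removed, 18625 of 31042 probe sets passed a mean log2 value of 5.37, the 40th percentile. The fit used limma 3.58.1, run in R 4.3.3 (lmFit, then eBayes with an intensity trend, with 2 residual degrees of freedom), and p values were adjusted over all of them by Benjamini-Hochberg. Each SE, interval and p value used a spread drawn toward that of probe sets of like intensity (median prior degrees of freedom 4.91). It is therefore not the spread of a gene's own arrays alone. The procedure was tested on simulated data. The platform annotation gave 1 symbol to 20826 probe sets, several to 436 and none to 9780. Precision is limited by the number of arrays.

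The members, lists and tests were chosen with earlier results of these data known. Named genes were all member probe sets, the main receptors, up to 4 called genes of each other list in each direction, and the 2 genes closest in profile to each member.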

Additional observations from a re-analysis of the deposited data

How the results depend on the processing

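The call of 2503 probe sets over the whole array became 1637 with median centring, 963 without the intensity trend and 1222 at an adjusted p of 0.01, and 1357 to 8666 with 1 array left out. A group left with 1 array was assumed to have the spread of the other. Median centring moved the median log2 difference of the probe sets tested to -0.19, against 0.02 without it, and turned the split from 1178 higher and 1325 lower to 563 higher and 1074 lower. The member genes called, 5 in all, numbered 3 with the filter at the 60th percentile, 3 without the intensity trend and 3 at an adjusted p of 0.01, and 4 to 6 with 1 array left out. These settings for member genes and for the other named genes were chosen after seeing the data. The stricter filter left Il15 and Ebi3 untested. Related ligands called numbered 1 with that filter, in which only 1 was tested, and signal transducers called, 7 probe sets, numbered 4 at an adjusted p of 0.01 and 4 to 12 with 1 array left out. The difference of Kitlg 1388096_at lay between -0.35 and 0.83 with 1 array left out, negative without IL-1b replicate 1. Grb2 was not called with median centring (0.48, adjusted p = 0.52) or without the intensity trend (adjusted p = 0.17). Its call was also lost without vehicle replicate 1 or 2, where the log2 difference was 0.72 and 0.65. With the replicate block 3276 probe sets, 8 member probe sets and 6 member genes were called, the added gene being Kitlg. The numbers only name the samples, and same-numbered arrays of the 2 groups deviated together weakly (r = 0.09 over probe sets). The cause of these shifts was not tested.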
